A study of Drosophila melanogaster with 15 samples.

Results

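Constitutive cytosolic chaperones and their cochaperones keep proteins folded in the unstressed cell, and 6 of their genes were followed across 5 genotypes of larval brain of Drosophila melanogaster. The genes were chosen by name as Hsp90, Hsc70, Hsp110, J-domain and BAG genes, by matching FlyBase symbols to the gene identifiers of the count table. All 6 (Hsp83, Hsc70-4, Hsp110, DnaJ-1, Droj2 and stv) were among its 8990 genes, and 6 of 6 passed the filter on low counts.

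Hsc70 is the central chaperone of this system and binds exposed hydrophobic stretches of unfolded proteins in a cycle driven by ATP. J-domain proteins bring clients to Hsc70 and start ATP hydrolysis, while Hsp110 and BAG-domain proteins exchange the nucleotide and let the client go. Some clients pass on to Hsp90, which matures kinases and steroid hormone receptors, among them the ecdysone receptor of insects.

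Polyadenylated RNA was sequenced from brains of female late third-instar larvae, with 3 libraries per genotype, 3 brains per library, and the libraries of a genotype taken on different days and labelled as batches 4, 5 and 6. In CDXX larvae the attached X chromosome C(1)DX was combined with a free X, which gives an extra copy of X. Their control, CDXY, carried C(1)DX with a Y chromosome. T2L was read, by elimination among the stated genotypes, as C(2L)SH1/+, which has an extra left arm of chromosome 2. Its control, C2L, carried the compound arm C(2L)SH1. Oregon is a standard laboratory strain. CDXX and T2L brains were dissected 8 days after egg laying, and CDXY and C2L brains 5 days after, so age and genotype cannot be told apart in either trisomy against its control. The age of the Oregon larvae is not given in the sources used here. A library pools whole brains, so fewer cells of a type and less RNA per cell cannot be told apart.

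Library totals ran from 22.9 M to 28.3 M counts. The summed level of 6 neuronal markers was between 1907 and 3223 CPM (counts relative to the library total, scaled by the trimmed mean of M-values, TMM) in all 15 libraries. That of 5 neuroblast markers was between 226 and 421 CPM. Markers of the labelled tissue were thus present in every library, but sums hide changes of single genes. The neuronal marker para, on X, averaged 594 CPM in CDXX, against 169 CPM in CDXY, and CadN 498 CPM, against 963 CPM. The other 4 neuronal markers and the 5 neuroblast markers were not called there. Summed ring gland markers (4 genes) ran from 3.76 to 916 CPM over the libraries. Summed glial markers (5 genes) were at 1854 to 1983 CPM in CDXX, against 621 to 839 CPM in CDXY, and 3 of the 5 rose, where 23.1% of all genes were higher and 20.8% lower. Of those 3, Gs2 and moody lie on X, which has an extra copy in CDXX, and nrv2 on 2L. Gs2 alone averaged 1104 CPM in CDXX, against 220 CPM in CDXY. The glial markers repo (147 CPM in CDXX, 127 CPM in CDXY) and Eaat1 (149 and 160 CPM) were not called. Summed hemocyte markers (9 genes, 3 of which rose, a share near that of all genes) were at 702 to 2598 CPM in CDXX, against 127 to 467 CPM in CDXY. Salivary gland markers (6 genes, 5 of which fell) summed to 1.66 to 6.91 CPM in CDXX, against 56.5 to 77.1 CPM in CDXY. The part of these cells in the results below was not tested.

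The 6 genes lie on the arms of chromosome 3, which is trisomic in none of the genotypes. Coordinates are on dm6. Hsp83 (FBgn0001233), the fly Hsp90, is at 3L, 3192969 to 3197059, plus strand. Hsc70-4 (FBgn0266599), the main constitutive Hsp70, is at 3R, 15242687 to 15246614, plus strand. Hsp110 (FBgn0026418) is at 3L, 14037019 to 14043686, plus strand. The J-domain genes are DnaJ-1 (FBgn0263106), at 3L, 5750029 to 5752189, minus strand, and Droj2 (FBgn0038145), at 3R, 13382106 to 13385283, plus strand. The BAG-domain gene stv (FBgn0086708, starvin), known from muscle maintenance in flies, is at 3L, 13477541 to 13483515, plus strand. Hsp83 shares 15 exon bases with CG14966 on the opposite strand, which had 4219 counts over all libraries, against 737862 for Hsp83, and the other 5 genes overlap no annotated gene.

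The members differ widely in abundance. Per kilobase of exon and averaged over the 15 libraries, Hsc70-4 stood at 1355 CPM, Hsp83 at 652 CPM, Droj2 at 194 CPM, Hsp110 at 107 CPM, DnaJ-1 at 47.9 CPM and stv at 5.92 CPM. Hsc70-4 and Hsp83 were above 99.1% and 98.5% of all genes by this measure, whereas stv was above 23.8%. The 6 genes together took 0.481% to 0.564% of all counts in CDXX, against 0.67% to 0.781% in CDXY.

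**Figure D1:**
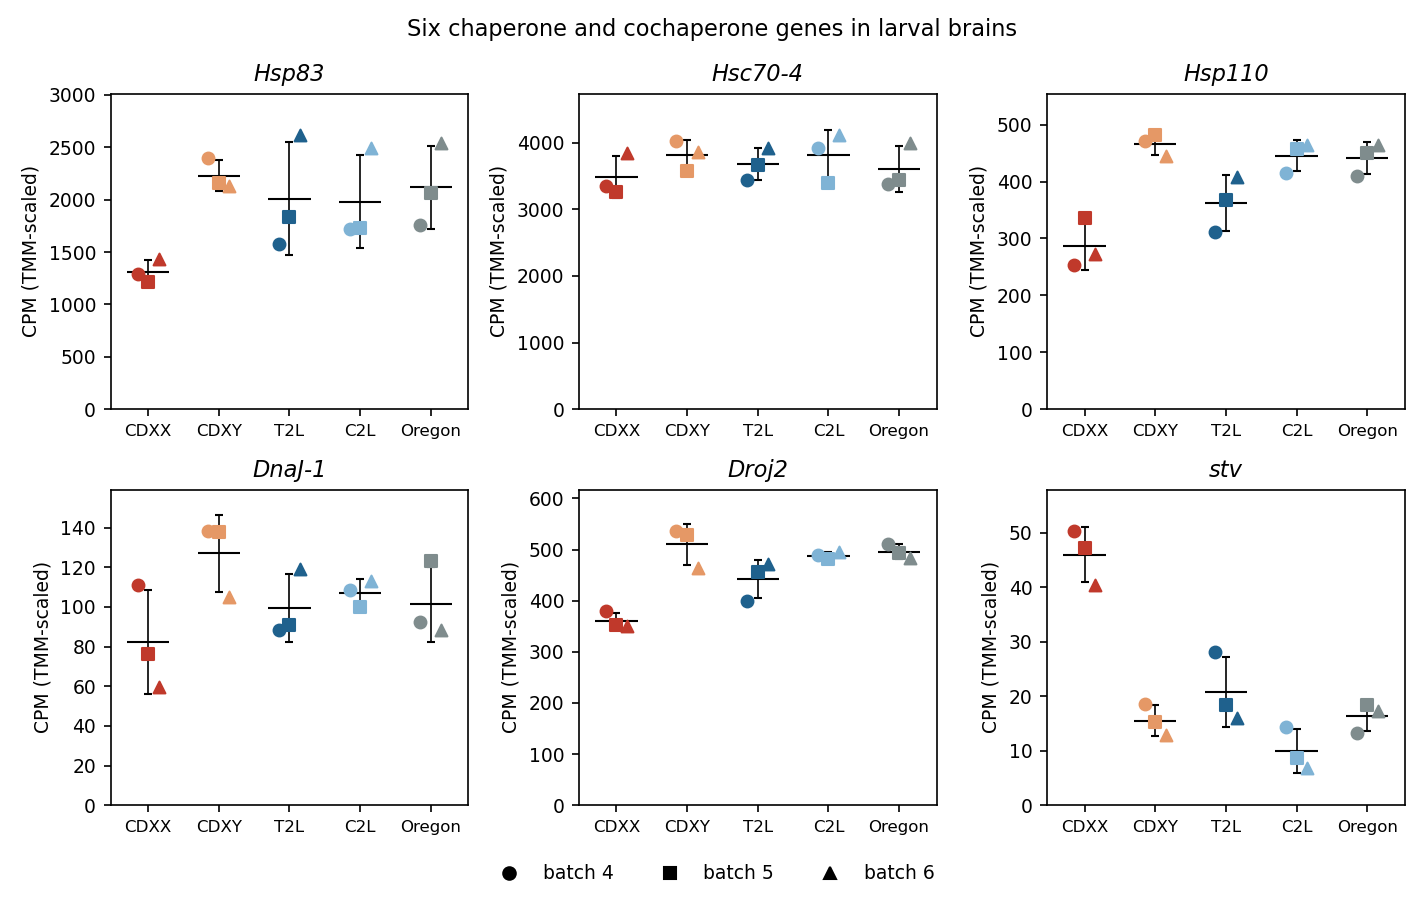
TMM-scaled CPM of the 6 genes in each of the 15 libraries, by genotype (horizontal axis), with symbols for batch, a line at the group mean and a bar of 1 SD (n = 3). CDXX libraries sit lowest for Hsp83 (1215 to 1435 CPM) and Droj2 (351 to 379 CPM) and highest for stv (40.4 to 50.35 CPM).

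In CDXX brains the Hsp90 gene, the Hsp110 gene and both J-domain genes were lower than in CDXY, the Hsc70 gene did not pass the test, and the BAG gene stv was higher, by 2.97-fold. Fold changes are given as log2 of CDXX over CDXY with their standard error (SE), and adjusted p-values come from edgeR's quasi-likelihood F test over 8981 genes with Benjamini-Hochberg adjustment, called under 0.05. Of the 6 genes, 5 were called, 1 higher and 4 lower. Among all genes, 43.9% were called, 23.1% higher and 20.8% lower, so single calls are common in this comparison. The higher calls made up 52.5% of all calls, and 62% with scaling factors taken from genes off X and 2L. The median log2 fold change was −0.56 for the 6 genes and 0.02 for all genes tested.

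Hsc70-4, the hub of the system, was at 3351, 3263 and 3847 CPM in the CDXX libraries of batches 4, 5 and 6, against 4024, 3574 and 3859 CPM in CDXY. The groups overlapped, and the log2 fold change was −0.13 with a 95% interval of −0.36 to 0.09 (edgeR adjusted p = 0.327). Hsc70-4 made up 61.6% to 64.1% of the 6 genes' counts in CDXX, against 51.8% to 55.0% in CDXY.

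Hsp83 stood at 1291, 1215 and 1435 CPM in CDXX, against 2401, 2155 and 2132 CPM in CDXY. Every CDXX library lay below every CDXY library, which 26.5% of all genes did, and the log2 fold change was −0.76 (SE 0.198, edgeR adjusted p = 0.00857). Within batches 4, 5 and 6 the difference was −0.90, −0.83 and −0.57. Per kilobase, the ratio of Hsp83 to Hsc70-4 was 0.342 to 0.353 in CDXX, against 0.507 to 0.553 in CDXY.

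Hsp110, a nucleotide exchange factor of Hsc70, was at 254, 335 and 273 CPM in CDXX, against 471, 482 and 445 CPM in CDXY. The groups did not overlap, and it fell by 0.70 on the log2 scale (SE 0.117, edgeR adjusted p = 0.000808), with within-batch differences of −0.89, −0.53 and −0.70. Of the J-domain genes, Droj2, a class A member of the DNAJA kind, was at 379, 352 and 351 CPM in CDXX, against 537, 529 and 464 CPM in CDXY. It fell by 0.50 (SE 0.08, edgeR adjusted p = 0.00063) with no overlap, and its within-batch differences were −0.50, −0.59 and −0.40. DnaJ-1, a class B member of the DNAJB1 kind, varied more, at 111, 76.4 and 59.4 CPM in CDXX, against 138, 138 and 105 CPM in CDXY. The groups overlapped, and the log2 fold change was −0.63 (SE 0.212, edgeR adjusted p = 0.030), with within-batch differences of −0.32, −0.85 and −0.82.

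The DnaJ-1 call rested on single libraries. It ended on leaving out CDXX replicate 6 (log2 fold change −0.44, adjusted p = 0.112), and also CDXX replicate 5, CDXY replicate 4 or CDXY replicate 5, with adjusted p-values of 0.080, 0.069 and 0.092 in that order. With the 6 libraries of the comparison alone the adjusted p was 0.084. The calls of Hsp83, Hsp110, Droj2 and stv held in all 13 alternatives.

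The rise of stv was the largest change among the 6. It was at 50.35, 47.1 and 40.4 CPM in CDXX, against 18.5, 15.2 and 12.8 CPM in CDXY, with no overlap (upward in 27.0% of all genes) and a log2 fold change of 1.57 (SE 0.275, edgeR adjusted p = 0.00107). The within-batch differences of 1.44, 1.63 and 1.66 lay close together. Relative to Hsp110, which serves the same step, the per-kilobase ratio of stv was 0.144 to 0.203 in CDXX, against 0.0293 to 0.0402 in CDXY.

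**Figure D2:**
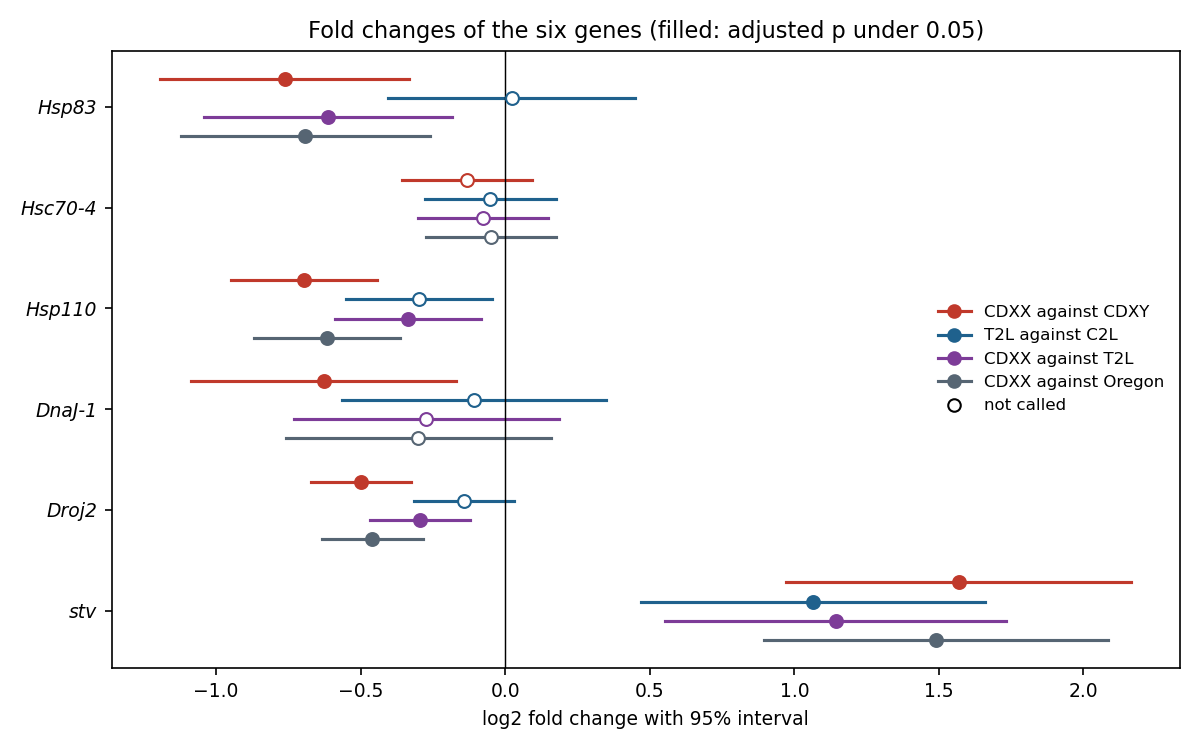
Log2 fold change with 95% interval of each of the 6 genes in 4 comparisons, filled where the edgeR adjusted p was under 0.05. In CDXX against CDXY stv stands at 1.57 and Hsp83, Hsp110, DnaJ-1 and Droj2 between −0.76 and −0.50, while in T2L against C2L stv alone is filled, at 1.06.

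Of 13 muscle markers tested in CDXX against CDXY, 8 rose and 1, the tropomyosin gene Tm1, fell, where 23.1% of all genes were higher and 20.8% lower. The summed level of the list was 727 to 1316 CPM in CDXX, against 805 to 902 CPM in CDXY, and most of it came from Tm1 and the actin gene Act87E. Mlc2, a myosin light chain gene, was at 69.9, 114.6 and 88.9 CPM in CDXX, against 5.72, 3.48 and 8.71 CPM in CDXY. Mhc, the muscle myosin heavy chain gene, was at 10, 57.4 and 14.3 CPM in CDXX, against 0.720, 0 and 3.86 CPM in CDXY. TpnC73F, a troponin C gene, was at 17.7, 17.4 and 10.5 CPM in CDXX, against 4.80, 3.40 and 9.12 CPM in CDXY. Among the CDXX libraries, replicate 5 had the highest Mhc and Mlc2, and replicate 4 the highest stv and TpnC73F. Without CDXX replicate 5 the log2 fold change of stv was 1.55 (edgeR adjusted p = 0.00276). Mlc2 was at 69.9 and 88.9 CPM in the CDXX libraries left, so this fit does not separate stv from muscle RNA. The part of muscle RNA in the rise of stv was not tested.

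**Figure D3:**
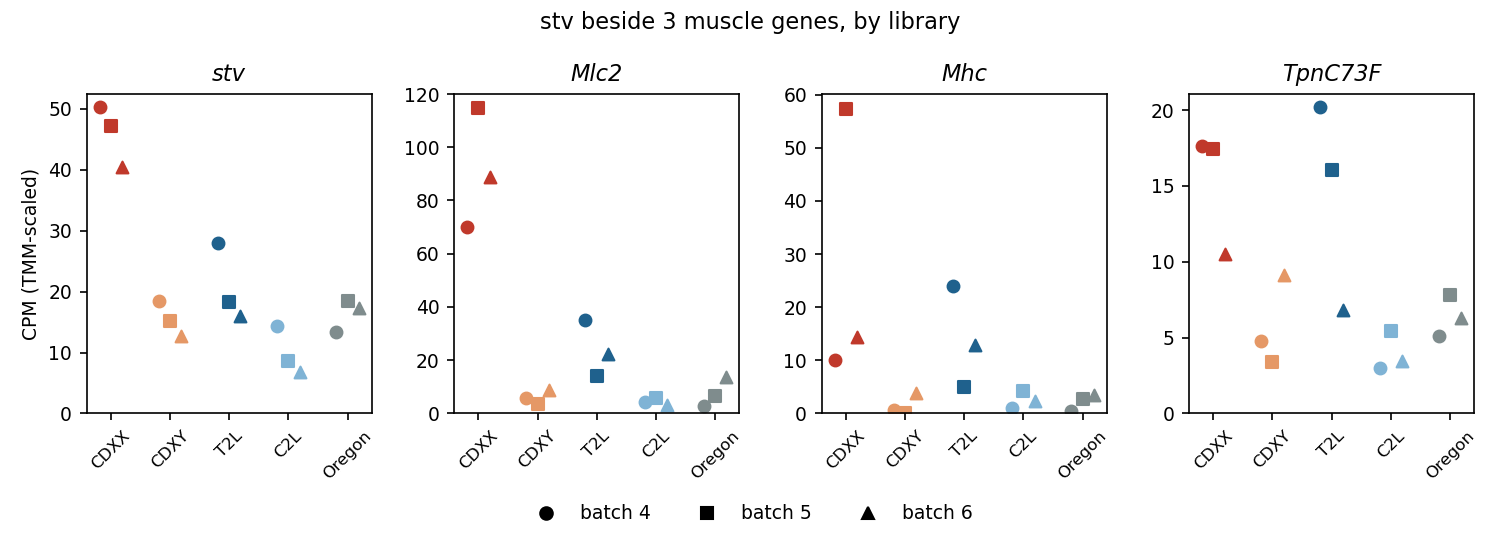
CPM of stv and of the muscle genes Mlc2, Mhc and TpnC73F in each library, by genotype (horizontal axis) and batch (symbol). The stv values are 40.4 to 50.35 CPM in CDXX and 6.73 to 28.1 CPM in the other 12 libraries, and Mlc2 is at 69.9 to 114.6 CPM in CDXX.

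Ecdysone-responsive genes also differed between these brains. Of 15 such genes, 2 rose and 8 fell in CDXX against CDXY, beside 23.1% of all genes higher and 20.8% lower. Their summed level was 1888 to 3137 CPM in CDXX, against 3401 to 5289 CPM in CDXY, and 2157 to 3814 CPM in Oregon. The gene br made up most of each CDXX sum, at 1328, 2006 and 1067 CPM in batches 4, 5 and 6. In CDXY br was at 1654, 1628 and 1500 CPM. The sums were 2546 to 3106 CPM in T2L and 3390 to 4382 CPM in C2L, where edgeR called 0 of the 15 (1 at an unadjusted p under 0.05, and 1 by DESeq2). The part of developmental stage in the chaperone results was not tested.

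In T2L brains, which share their age with CDXX, 1 of the 6 genes was called against C2L, and it was stv. The background was 15.7% of all genes called, 11.6% higher and 4.05% lower, and at an unadjusted p under 0.05 2 of the 6 passed. The higher calls made up 74.2% of all calls with TMM over all genes and 85.3% with factors taken from genes off X and 2L. The median log2 fold change was −0.08 for the 6 genes and −0.01 for all genes.

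In T2L, stv was at 28.1, 18.3 and 16 CPM, against 14.4, 8.69 and 6.73 CPM in C2L. The groups did not overlap, which was so upward in 21.4% of all genes, and the log2 fold change was 1.06 (SE 0.275, edgeR adjusted p = 0.0213), with within-batch differences of 0.96, 1.08 and 1.25. The call ended on leaving out T2L replicate 4 (log2 fold change 0.79, adjusted p = 0.093), and also C2L replicate 5 or 6, with adjusted p-values of 0.0722 and 0.0841 in that order. With the 6 libraries of the comparison alone the adjusted p was 0.0886. C2L had the lowest mean stv of the 5 genotypes, at 9.94 CPM. Against Oregon, stv in T2L overlapped and was not called (log2 fold change 0.35, edgeR adjusted p = 0.463). Its within-batch differences from Oregon were 1.075, −0.009 and −0.116. Of the 13 muscle markers 2 rose here, a share near the 11.6% of all genes, Mlc2 at 35.03, 14.0 and 22.3 CPM in T2L, against 4.33, 5.95 and 3.12 CPM in C2L, and the troponin C gene TpnC73F at 20.2, 16.0 and 6.81 CPM in T2L, against 3.00, 5.40 and 3.48 CPM in C2L. T2L replicate 4 had the highest stv, Mlc2, Mhc and TpnC73F of the 3 T2L libraries. The part of muscle RNA in the rise of stv was not tested.

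Hsp110 was at 311, 368 and 409 CPM in T2L, against 416, 457 and 465 CPM in C2L. The groups did not overlap, but the log2 fold change of −0.30 did not pass (SE 0.116, edgeR adjusted p = 0.102). With the batch as a replicate block it passed, at −0.30 (adjusted p = 0.0479). Droj2 was at 400, 456 and 472 CPM in T2L, against 488, 481 and 496 CPM in C2L, also without overlap, and its log2 fold change of −0.14 (95% interval −0.32 to 0.03, adjusted p = 0.245) did not pass. Non-overlap downward was seen in 16.1% of all genes.

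Hsp83 in T2L was at 1581, 1831 and 2621 CPM, against 1721, 1729 and 2492 CPM in C2L. The log2 fold change was 0.02 with a 95% interval of −0.41 to 0.45 (edgeR adjusted p = 0.952), and it was below 0 without T2L replicate 6 (−0.22), C2L replicate 4 (−0.08) or C2L replicate 5 (−0.07). Hsc70-4 had a log2 fold change of −0.05 (95% interval −0.28 to 0.17, adjusted p = 0.770) and DnaJ-1 one of −0.11 (95% interval −0.57 to 0.35, adjusted p = 0.763). For these 3 genes the groups overlapped.

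Whether the change in CDXX differs from that in T2L was tested as the difference of the log2 fold changes. Of the 6 genes 1 was called, Droj2, at −0.36 (SE 0.112, edgeR adjusted p = 0.038), where 22.3% of all genes were called. This call ended with the libraries of the 4 groups alone (adjusted p = 0.0549) and without any 1 of 9 of the 12 libraries, all but CDXX replicate 4, CDXY replicate 6 and T2L replicate 4 (adjusted p up to 0.097). Hsp83 had a difference of −0.79 (95% interval −1.39 to −0.18, adjusted p = 0.0607), called with DESeq2 (adjusted p = 0.0226) and with the replicate block (adjusted p = 0.0139). Hsp110 had −0.40 (adjusted p = 0.0988), called with the replicate block (adjusted p = 0.04555). For stv the difference was 0.50 (95% interval −0.33 to 1.34, adjusted p = 0.362).

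CDXX and T2L have the same stated age, and their comparison sets an extra X against an extra 2L. Of the 6 genes 4 were called, 1 higher and 3 lower, where 37.6% of all genes were called, 18.0% higher and 19.6% lower. For stv the log2 fold change was 1.14 (SE 0.272, edgeR adjusted p = 0.00559), for Droj2 −0.29 (SE 0.08, adjusted p = 0.0116), for Hsp83 −0.61 (SE 0.198, adjusted p = 0.0276) and for Hsp110 −0.34 (SE 0.116, adjusted p = 0.0383). In Hsp110 the groups overlapped, and in the other called genes they did not, as in 24.6% of all genes downward and 23.8% upward.

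The call of stv in CDXX against T2L held in all 13 alternatives. That of Hsp83 ended on leaving out T2L replicate 6 (log2 fold change −0.38, adjusted p = 0.148), and CDXX replicate 4 or 5, with adjusted p-values of 0.0703 and 0.0765. That of Droj2 ended without T2L replicate 6 (adjusted p = 0.0547). That of Hsp110 ended on leaving out CDXX replicate 4 or 6, with adjusted p-values of 0.140 and 0.112, or T2L replicate 5 or 6, with 0.0898 and 0.166, and with factors off X and 2L (adjusted p = 0.0517). With the 6 libraries alone stv was the 1 gene called. DnaJ-1 had a log2 fold change of −0.27 (adjusted p = 0.330) and passed without CDXX replicate 4 (−0.55, adjusted p = 0.0461).

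Against Oregon, whose age is not given, 4 of the 6 genes were called in CDXX, 1 higher and 3 lower, where 35.3% of all genes were called, 18.7% higher and 16.6% lower. The higher calls made up 53.0% of all calls with TMM over all genes and 67.8% with factors off X and 2L. Hsp83 was at 1215 to 1435 CPM in CDXX, against 1757, 2061 and 2542 CPM in Oregon, and Hsp110 at 254 to 335 CPM in CDXX, against 410, 450 and 464 CPM in Oregon. Droj2 was at 351 to 379 CPM in CDXX, against 512, 492 and 484 CPM in Oregon, and stv at 40.4 to 50.35 CPM in CDXX, against 13.3, 18.5 and 17.3 CPM in Oregon. None of these 4 overlapped, where 21.4% of all genes lay apart downward and 22.6% upward. The log2 fold changes were −0.69 for Hsp83 (edgeR adjusted p = 0.0182), −0.62 for Hsp110 (adjusted p = 0.00212), −0.46 for Droj2 (adjusted p = 0.00136) and 1.49 for stv (adjusted p = 0.00189). The Hsp83 call ended on leaving out CDXX replicate 4 or 5, with adjusted p-values of 0.0507 and 0.052, or Oregon replicate 6, with 0.0669. DnaJ-1 did not pass (−0.30, adjusted p = 0.285) but passed without CDXX replicate 4 (−0.58, adjusted p = 0.0433).

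None of the 6 genes was called by edgeR in T2L against Oregon, in CDXY against Oregon, in C2L against Oregon or in CDXY against C2L, and DESeq2 called none there either. All genes were called at 13.0%, 0.857%, 2.14% and 2.74% in these 4 comparisons, in that order. At an unadjusted p under 0.05 the counts were 1, 0, 1 and 1 of the 6. They were Hsp110 in T2L against Oregon (log2 fold change −0.28, adjusted p = 0.139), stv in C2L against Oregon (−0.72, adjusted p = 0.326) and stv in CDXY against C2L (0.64, adjusted p = 0.349). In T2L against Oregon 79.3% of all calls were higher, and 89.6% with factors off X and 2L.

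Ordered by mean level, the genotypes overlap with their neighbours at most steps. For Hsp83 the order was CDXY, Oregon, T2L, C2L and CDXX, and CDXX at 1314 ± 112 CPM had no overlap with C2L at 1980 ± 443 CPM (SD, n = 3 each). For Droj2 CDXX was lowest at 361 ± 15.7 CPM, T2L next at 443 ± 37.8 CPM and C2L above it at 488 ± 7.58 CPM, with no overlap at either step. For stv CDXX at 46.0 ± 5.08 CPM stood apart from T2L at 20.8 ± 6.39 CPM, and Oregon at 16.4 ± 2.72, CDXY at 15.5 ± 2.87 and C2L at 9.94 ± 3.98 CPM overlapped in sequence. Against the other 12 libraries together, all 3 CDXX libraries were lower for Hsp83 and Droj2 and higher for stv, while Hsc70-4, Hsp110 and DnaJ-1 overlapped. Among all genes, 10.5% lay wholly below and 13.2% wholly above in this way.

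By Pearson correlation of log2 CPM over the 15 libraries, each gene was compared with 8980 others. These r values are descriptive, since libraries share genotype, batch and depth. Hsp110 was most like AP-1mu (r = 0.976), CSN1b (r = 0.973) and Ddx1 (r = 0.971), Droj2 like RYBP (r = 0.949), Bgb (r = 0.944) and Capr (r = 0.942), and stv like CG32170 (r = 0.976), CG5541 (r = 0.965) and CG14968 (r = 0.961). An r above 0.8 was reached by 6.5% of genes for Hsp110, 5.84% for Droj2 and 5.14% for stv. Hsp83 was most like pasha (r = 0.909), vlc (r = 0.908) and EloA (r = 0.893), and DnaJ-1 like Taf6 (r = 0.914), Kat60 (r = 0.874) and Nf-YA (r = 0.869). Hsc70-4 was most like aft (r = 0.848), AspRS (r = 0.787) and al (r = 0.784), and 0.0111% of genes reached an r above 0.8 with it. The gene al had few counts, with group means from 0.590 CPM in CDXX to 3.44 CPM in C2L.

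The wider chaperone network was described with 5 lists drawn from textbook knowledge, chosen with earlier results of these data known, and the counts are set beside the background of 43.9% for CDXX against CDXY. Of 10 Hsp90 cochaperones 0 rose and 5 fell (median −0.30). Stip1, which hands clients from Hsc70 to Hsp90, was at 161 ± 13.3 CPM in CDXX, against 269 ± 10.3 CPM in CDXY (log2 fold change −0.74, edgeR adjusted p = 0.000661). The kinase-specific cochaperone gene Cdc37 fell by 0.54 (adjusted p = 0.00473) and nudC by 0.55 (adjusted p = 0.00267). The p23 gene (−0.38, adjusted p = 0.0415) and the phosphatase gene PpD3 (−0.28, adjusted p = 0.0199) were also called. The p23 call ended on leaving out CDXX replicate 4 or 6 or any CDXY replicate (adjusted p up to 0.156), with factors off X and 2L (adjusted p = 0.0802), with only the groups compared (adjusted p = 0.0725) and with the replicate block (adjusted p = 0.0556). The PpD3 call ended on leaving out CDXX replicate 4 or 5 (adjusted p up to 0.0627) and with factors off X and 2L (adjusted p = 0.0508). The count of 5 was 3 without CDXX replicate 4 and with factors off X and 2L.

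Of 7 genes in the list of other Hsc70 and Hsp70 cochaperones 0 rose and 2 fell (median −0.21). That list also holds Hsf, the transcription factor of the heat shock response, and Hsc70-2, a gene related to Hsc70-4. The 2 that fell were Hsf, at 69.5 ± 4.05 CPM in CDXX, against 85.3 ± 5.98 CPM in CDXY (−0.30, edgeR adjusted p = 0.00929), and CG7945 (−0.23, adjusted p = 0.0097). Of 15 other J-domain genes 3 rose and 5 fell (median −0.07). CG5001 was at 29.8 ± 3.18 CPM in CDXX, against 10.4 ± 4.58 CPM in CDXY (1.51, adjusted p = 0.00222), while the endosomal J-domain gene Rme-8 fell by 0.42 (adjusted p = 0.00458), mrj by 0.37 (adjusted p = 0.00662) and the auxilin gene aux by 0.29 (adjusted p = 0.00739). The J-domain count of 8 was 4 without CDXX replicate 6 or CDXY replicate 5, and 5 without CDXY replicate 4.

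Of 6 small heat shock protein genes 0 rose and 5 fell (median −1.52), the lowest median of the 5 lists. The remaining gene, l(2)efl, went the other way, at 6.78 ± 2.08 CPM in CDXX, against 2.49 ± 1.67 CPM in CDXY. Its log2 fold change of 1.44 was not called (edgeR adjusted p = 0.0597) but passed with the replicate block (adjusted p = 0.0464). The count of 5 ran from 4 to 6 over the 13 alternatives. Hsp23 was at 773 ± 272 CPM in CDXX, against 2696 ± 500.1 CPM in CDXY (−1.80, edgeR adjusted p = 0.00075), and Hsp27 at 760 ± 284 CPM in CDXX, against 2815 ± 592 CPM in CDXY (−1.89, adjusted p = 0.00126). Of 8 subunits of the CCT chaperonin, which folds actin and tubulin, 1 rose and 5 fell (median −0.31). CCT1 was at 268 ± 18.7 CPM in CDXX, against 355 ± 11.2 CPM in CDXY (−0.41, adjusted p = 0.00521), and the X-linked CCT6 was the 1 that rose (0.31, adjusted p = 0.0218), a call that ended on leaving out CDXX replicate 5 or CDXY replicate 4 or 5 (adjusted p up to 0.0832). The CCT count of 6 was 3 without CDXX replicate 4, CDXX replicate 6 or CDXY replicate 5.

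In T2L against C2L, where the background was 15.7%, the lists gave 1 of 10 Hsp90 cochaperones, 2 of 7 genes of the other Hsc70 and Hsp70 list, 3 of 15 J-domain genes, 2 of 6 small heat shock protein genes and 2 of 8 CCT subunits. The higher genes were STUB1, Sgt, DnaJ-H, CG5001 and CCT4, all on 2L, which has an extra copy in T2L, and l(2)efl on 2R. The lower genes were HIP-R, CG2790, Hsp67Ba and CCT3. Of these calls, those of STUB1 and DnaJ-H alone held in all 13 alternatives. STUB1, a ubiquitin ligase gene on 2L, rose to 55.4 ± 3.69 CPM in T2L, against 40.7 ± 2.59 CPM in C2L (0.45, edgeR adjusted p = 0.00176). DnaJ-H, also on 2L, was at 50.05 ± 5.46 CPM in T2L, against 34.4 ± 2.90 CPM in C2L (0.54, adjusted p = 0.00397). It averaged 50.08 CPM in Oregon, 49.25 CPM in CDXX and 48.43 CPM in CDXY. The T2L mean was thus near those of genotypes without an extra 2L, and C2L alone was low. Stip1 (0.34, adjusted p = 0.0692) and Fkbp59 (0.39, adjusted p = 0.102), both on 2L, did not pass, though Fkbp59 did with the replicate block (adjusted p = 0.0191). HIP-R and HIP are near-identical copies of each other, so the call of HIP-R (−0.44, adjusted p = 0.0164) is uncertain, and it ended on leaving out T2L replicate 4 or C2L replicate 6 (adjusted p up to 0.0683). Single left-out libraries and other settings moved these counts, to 1 to 5 Hsp90 cochaperones (5 with DESeq2, 4 with the replicate block), 0 to 4 genes of the other Hsc70 and Hsp70 list, 1 to 4 J-domain genes, and 0 to 3 in each of the last 2 lists.

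**Figure D4:**
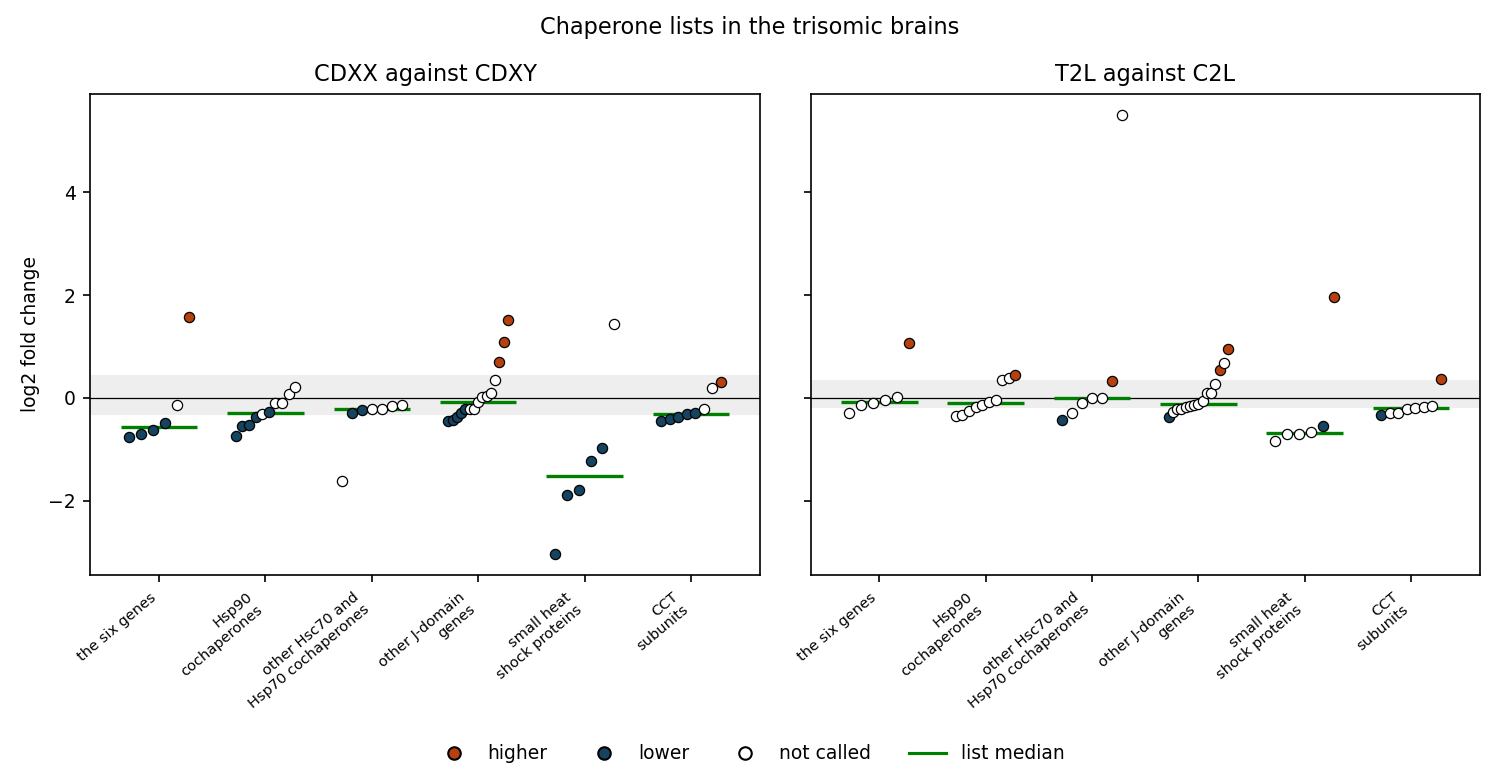
Log2 fold change of the 6 genes and of each gene of the 5 lists (filled where called, open where not) in CDXX against CDXY and in T2L against C2L, with the list median as a green line and the middle 50% of all tested genes as a grey band. The small heat shock protein median is −1.52 in CDXX against CDXY and −0.68 in T2L against C2L, and the highest point of the second panel is Hsc70-2, which averaged 8.29 ± 14.1 CPM in T2L and 0.178 ± 0.130 CPM in C2L and was not called.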

How the data were processed

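The authors deposited raw read counts per gene, whole numbers, not normalized. Per the submitters' processing notes, the tools were Trim Galore, STAR 2.7.10a and featureCounts, and the build was dm6. The strand setting and the treatment of reads with several matches are not given in the sources used here. Polyadenylated RNA was selected before library preparation, per the labels' protocols.

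Groups and replicate numbers were taken from the genotype and batch labels. Any pair of libraries of a group differed by at least 55.4 times what sampling noise gives, and each was kept as its own replicate. The p-values therefore rest on variation among dissection days and brain pools. Counts were tested with edgeR 4.0.16 in R 4.3.3 (quasi-likelihood F test, robust, TMM, filterByExpr by group), with 5 group means over 15 libraries and no covariate. Of 8990 genes 8981 were tested and 9 removed. P-values are two-sided and were adjusted over all genes tested. Standard errors are the log2 fold change over the square root of F, and 95% intervals use the t distribution on the fit's total degrees of freedom. The common biological coefficient of variation was 24.9%. CPM was computed on library sizes times TMM factors, and log2 CPM with a prior count of 1. Exon lengths, coordinates and symbols were read from an Ensembl annotation on dm6.

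Members, lists and named genes were chosen with earlier results of these data known. The text names the 6 members, up to 6 genes per list called in CDXX against CDXY and up to 4 in T2L against C2L by lowest adjusted p, the 3 genes most correlated with each member, and markers beside a result. Hsc70-2 and Fkbp59 were named after their values were seen.

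Libraries with the same batch label were taken as paired for the within-batch differences and in the replicate block, but not in the main test. That test had no term for batch, so its p-values make no use of the pairing. Whether a batch was 1 day is not stated in the labels. Correlating the libraries' deviations from their group means gave a median r of 0.129 for 30 same-batch pairs, of which 16 exceeded 0.1, and −0.065 for 60 other pairs, of which 16 did. On simulated counts for 8981 genes the scripts were tested for recovering known changes. Alternatives were DESeq2 1.42.0 size factors and its Wald test, factors from genes off X and 2L, no filter, at least 10 counts in 3 libraries, the replicate block, only the groups compared, and each library left out.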

Additional observations from a re-analysis of the deposited data

Results flagged for a closer look

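For Droj2, the effect in CDXX against CDXY differed from that in T2L against C2L by −0.36 on the log2 scale (SE 0.112, edgeR adjusted p = 0.038), by a test of the difference itself, which called 22.3% of all genes. The call ended with the libraries of the 4 groups alone (adjusted p = 0.0549) and without any 1 of 9 of the 12 libraries (adjusted p up to 0.097). Droj2 was lower in all 3 CDXX libraries than in any CDXY library, and lower in all 3 T2L libraries than in any C2L library, with log2 fold changes of −0.50 and −0.14. Among all genes, 26.5% and 16.1% lay apart downward in these 2 comparisons.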

How the results depend on the processing

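In T2L against C2L, the number of the 6 genes called, 1, was 2 with the replicate block, 0 with only the groups compared and 0 to 1 with single libraries left out. In CDXX against T2L, 4 became 1 with only the groups compared and 1 to 4 with libraries left out. For the difference of the trisomies, 1 became 2 with DESeq2, 3 with the replicate block, 0 with only the groups compared and 0 to 3 with libraries left out. Of all genes called, T2L against C2L gave 1408 and 755 to 1151 with libraries left out (lowest without C2L replicate 6), CDXY against C2L 246, 401 with DESeq2 and 145 with only the groups compared, CDXX against Oregon 3173 and 1877, T2L against Oregon 1166 and 563 in that setting, CDXY against Oregon 77, 176 with DESeq2, 14 with only the groups compared and 47 to 65 with libraries left out, and C2L against Oregon 192, 356, 109 and 121 to 171 in the same settings. Sign changes were seen for Hsp83 in T2L against C2L (−0.22 to 0.22 with libraries left out), Hsc70-4 there (−0.128 to 0.008) and Hsc70-4 in CDXX against Oregon (0.031 with factors off X and 2L, −0.125 to 0.032 with libraries left out), none of them called. The cause was not tested. Of the single-gene alternatives, 772 kept direction and side of the threshold, 118 lost the call, 11 gained it and 6 changed sign. The replicate block changed the Hsp110 call in T2L against C2L, the Hsp83 and Hsp110 calls in the difference, and no other call of the 6 genes in CDXX against CDXY or T2L against C2L. Among the listed genes in CDXX against CDXY, it ended the calls of p23 and Prm (adjusted p = 0.0556 and 0.0717) and added those of Fkbp59, CG10565, l(2)efl, Act87E, Sgs1, elav and Lsp1beta (adjusted p 0.00885 to 0.0464). In T2L against C2L it ended the call of Sgt (adjusted p = 0.0585) and added those of PpD3, Cdc37, Fkbp59, CCT1 and Sgs1 (adjusted p 0.0191 to 0.0401). With 3 libraries a group the 95% intervals in CDXX against CDXY are wide (DnaJ-1 −1.09 to −0.17, stv 0.97 to 2.17 on the log2 scale), and stv, at 6.73 to 50.35 CPM, has the fewest counts of the 6.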

Other observations

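Hsc70-2, a gene related to Hsc70-4, was at 1.88, 13.1 and 0.528 CPM in the CDXX libraries of batches 4, 5 and 6, 27.9, 18.9 and 0.205 CPM in CDXY, 0.243, 24.5 and 0.0846 CPM in T2L, 0.296, 0.0386 and 0.200 CPM in C2L, and 30.01, 31.4 and 35.6 CPM in Oregon. It was high in every Oregon library and low in every C2L library, and within CDXY and T2L it was near 0 in some batches and not in others. It was named after its values were seen.

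The libraries of batch 6 had the highest Hsp83 and Hsc70-4 in 4 of the 5 genotypes, all but CDXY, and those of batch 4 had the highest stv in 4 of the 5, all but Oregon.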
